A study of Homo sapiens with 36 samples.

Results

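The levels of 4 mature miRNAs are described, hsa-miR-26a-5p, hsa-miR-26b-5p, hsa-miR-26b-3p and hsa-miR-101-3p, written without the species prefix from here on. They were picked by name, as the miR-26 family and a miRNA known to target EZH2, with no threshold on their measured values, out of 1508 miRNAs listed for 36 small RNA libraries. All libraries were made from WI-38, a normal fibroblast strain of human lung grown in culture. There were 18 conditions with 2 libraries each, labelled as biological replicates. Ctrl were young, proliferating, untreated cells. PMD-Sen cells had been exposed to the detergent sodium dodecyl sulphate (SDS), which injures the plasma membrane, and DDR-Sen cells to doxorubicin (DXR), a drug that damages DNA. Both series were harvested at the end of the treatment, before washout (D0), and then after washout at D1 to D4, D6, D8 and D16. RS cells had reached replicative senescence by serial passage. All samples were of this 1 cell strain, and the same 2 Ctrl libraries served every comparison with untreated cells, so those comparisons are not independent of each other. The labels and the paper call the replicates biological, but the sources used here do not say whether they came from separate cultures. The p-values therefore measure only the spread between these libraries, and whether that covers the spread between separate cultures is not known.

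A miRNA guides the Argonaute protein to mRNAs that pair with its seed, the bases near its 5′ end, and such mRNAs are translated less or decay sooner. miR-26 and miR-101 are both known as repressors of EZH2, the catalytic subunit of Polycomb repressive complex 2, which methylates histone H3 and keeps genes silent, the CDKN2A locus of senescence among them. EZH2 is abundant in proliferating fibroblasts and is known to decline as they senesce. The miR-26 hairpins lie in introns of genes for small C-terminal domain phosphatases, which restrain RNA polymerase II and the cell cycle. No mRNA or protein was measured in these libraries, so the level of EZH2 itself is not part of these data.

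The mature sequences show which of the 4 miRNAs share a seed. They are from RefSeq (GRCh38.p14), 5′ to 3′, with the seed, bases 2 to 8, in capitals. All 4 names matched an entry.
miR-26a-5p: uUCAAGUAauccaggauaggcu
miR-26b-5p: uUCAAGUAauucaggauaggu
miR-26b-3p: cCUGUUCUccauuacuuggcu
miR-101-3p: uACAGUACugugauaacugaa

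miR-26a-5p and miR-26b-5p had the same seed and the same first 10 bases. Counted from the 5′ end, with the base of miR-26a-5p first, they differed by C11U and C21U, and miR-26a-5p had 1 extra base at its 3′ end. miR-101-3p and miR-26b-3p had seeds of their own, so 3 seeds were present among the 4 miRNAs. miR-26a-5p is encoded at 2 places, in MIR26A1 on chromosome 3 (chr3:37969413-37969434, plus strand, in an intron of CTDSPL) and in MIR26A2 on chromosome 12 (chr12:57824658-57824679, minus strand, in an intron of CTDSP2), and its counts could come from either. Both arms of miR-26b come from MIR26B in an intron of CTDSP1 (5p at chr2:218402657-218402677, 3p at chr2:218402692-218402712, plus strand). miR-101-3p is encoded in MIR101-2 (chr9:4850345-4850365, plus strand, in an intron of RCL1), and the MIR101-1 hairpin (chr1:65058434-65058508, minus strand, within the bounds of JAK1 but outside its MANE Select transcript) holds the same mature sequence.

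The 3′ UTR of EZH2 was searched for the complement of each seed, since this is the target for which these miRNAs are known. On the MANE Select transcript (chromosome 7, minus strand) the UTR was 263 bases long. It held 1 TACTTGA, the complement of the miR-26 seed, starting at UTR base 250, and 2 GTACTGT, the complement of the miR-101 seed, starting at bases 59 and 114. Each is shown in capitals in a window of 23 bases of the RNA strand, 5′ to 3′ (GRCh38, minus strand).
miR-26 match (chr7:148807389-148807411): actttgaataaagaaTACTTGAa
first miR-101 match (chr7:148807580-148807602): cttcaggaacctcgaGTACTGTg
second miR-101 match (chr7:148807525-148807547): ttctgaatttgcaaaGTACTGTa

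The complement of the miR-26b-3p seed, AGAACAG, was not among the 263 bases. In the first 263 bases of 15608 UTRs that were at least as long, TACTTGA was present in 1.95%, GTACTGT in 1.36% and AGAACAG in 2.54%. The strand of the transcript alone was searched. A match of letters describes the sequence and says nothing about binding in these cells.

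The libraries held 81668 to 1933435 counts (median 376989), and the deepest was replicate 1 of PMD-Sen D16. Levels are given as CPM, counts scaled to a common library total, with the totals corrected by edgeR's trimmed mean of M-values (TMM), with replicate 1 first. All 5 fibroblast miRNAs of a fixed list were present, summing to 8644 to 30393 CPM in a library. The epithelial markers summed to 14.6 to 163 CPM, the endothelial to 18.4 to 200 CPM, the blood to 0 to 12.6 CPM, the neural to 0 to 17.6 CPM and the liver marker miR-122-5p reached 6.44 to 264 CPM. Of 360 miRNAs with enough counts to be tested, 3 were miR-26a-5p, miR-26b-5p and miR-101-3p. The remaining member, miR-26b-3p, failed this filter on low counts.

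The 4 miRNAs differed widely in abundance in these fibroblasts. By mean CPM over the libraries, miR-26a-5p was the 9th most abundant of 1508 miRNAs (23130 CPM). miR-26b-5p was the 57th (2207 CPM) and miR-101-3p the 163rd (152 CPM). miR-26b-3p was the 469th (4.04 CPM). CPM is a share of the sequenced miRNAs and not an amount per cell, and in bulk samples fewer cells of a type and less RNA per cell cannot be told apart. Differences in ligation between sequences also enter any comparison of levels between miRNAs.

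**Figure D1:**
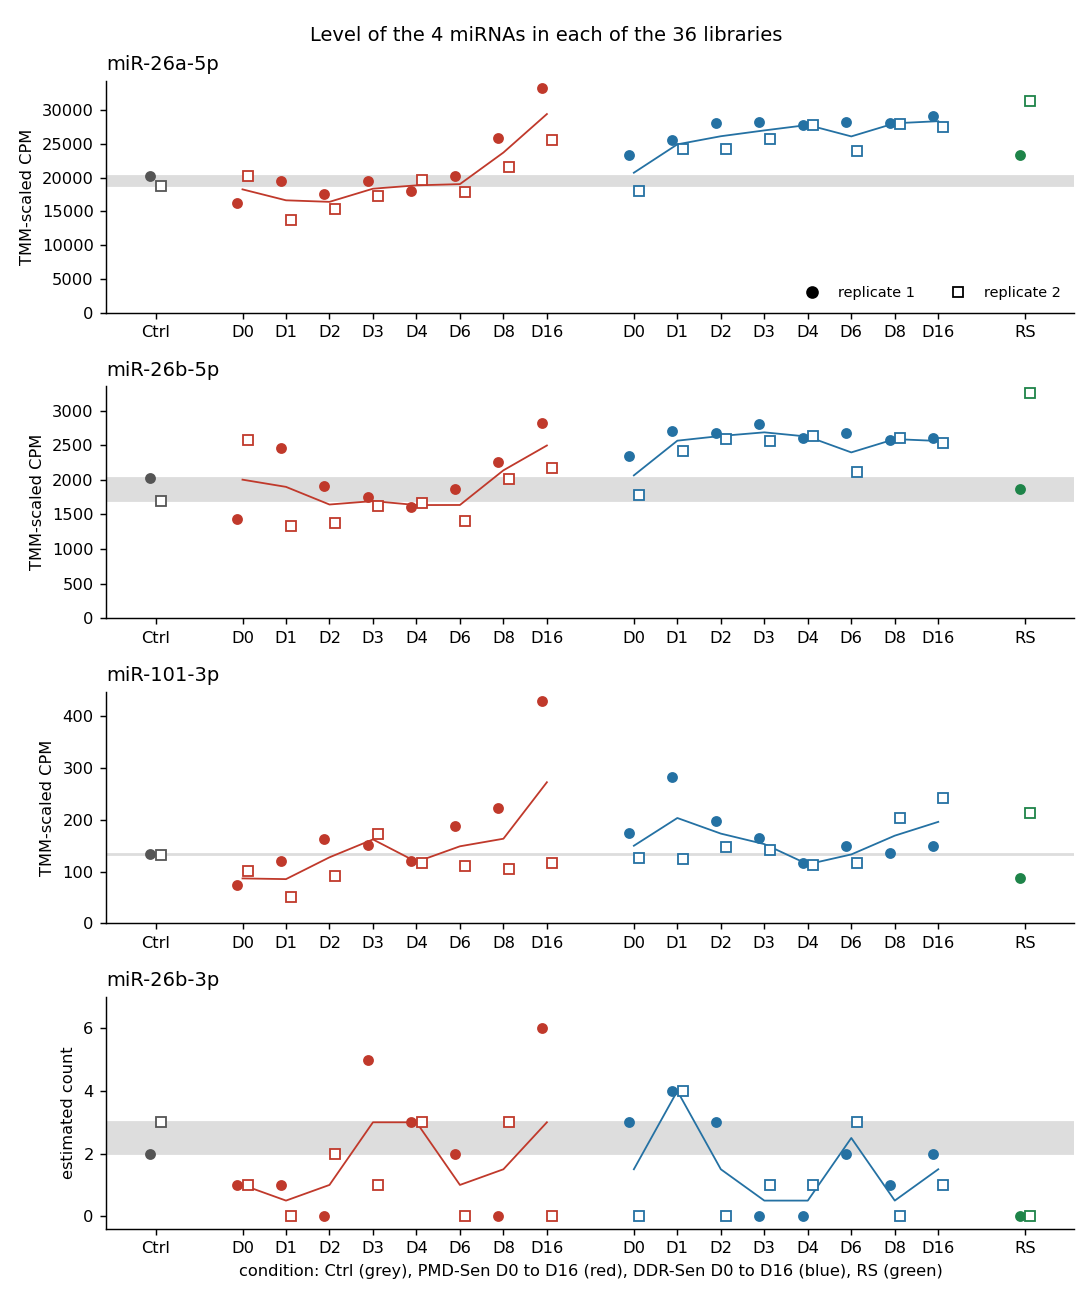
Level of each miRNA (vertical axis, TMM-scaled CPM, or the estimated count for miR-26b-3p) in each of 36 libraries by condition (horizontal axis), with filled circles for replicate 1, open squares for replicate 2, lines through the means of a series and a grey band between the 2 Ctrl libraries. In the panels of miR-26a-5p and miR-26b-5p the PMD-Sen points stay near or under the Ctrl band from D1 to D6 (except replicate 1 of PMD-Sen D1 for miR-26b-5p) and the DDR-Sen points lie above it, while the 2 miR-101-3p libraries of PMD-Sen D16 lie far apart at 428 and 117 CPM.

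Among the members, the difference with the smallest adjusted p was that of the miR-26 pair between the senescence inducers. After SDS, miR-26a-5p and miR-26b-5p stayed near the Ctrl level until D6, while after DXR they stood above it from D1 on. At D16 the series overlapped. For miR-101-3p no difference between the series over D1 to D16 passed the test.

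In Ctrl, miR-26a-5p was at 20204 and 18769 CPM. In PMD-Sen D1 to D6 its 10 libraries lay between 13785 and 20170 CPM (median 17973). In DDR-Sen D1 to D6 its 10 libraries lay between 23945 and 28265 CPM (median 26716). Every one of the latter was thus above every one of the former, and above both Ctrl libraries. The share of all tested miRNAs separated in this way over D1 to D6 was not counted. At D0 the series overlapped, with 16266 and 20241 CPM in PMD-Sen and 23356 and 18068 CPM in DDR-Sen. At D8, miR-26a-5p was at 25795 and 21599 CPM in PMD-Sen and at 28120 and 27926 CPM in DDR-Sen. At D16 it was at 33294 and 25483 CPM in PMD-Sen and at 29141 and 27524 CPM in DDR-Sen, so the series overlapped again with all 4 libraries above Ctrl.

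miR-26b-5p, its seed partner from another gene, was at 2032 and 1702 CPM in Ctrl. In PMD-Sen D1 to D6 it ranged from 1339 to 2460 CPM (median 1645, 10 libraries). In DDR-Sen D1 to D6 it ranged from 2112 to 2812 CPM (median 2627, 10 libraries). The ranges overlapped through a single PMD-Sen library, replicate 1 of D1 at 2460 CPM, and the next highest PMD-Sen library, at 1918 CPM, lay below all 10 of DDR-Sen. How many of all tested miRNAs came as near to separation over these days was not counted. At D16 the values were 2822 and 2175 CPM in PMD-Sen and 2600 and 2528 CPM in DDR-Sen.

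The difference between the series was tested over D1 to D16 in an edgeR quasi-likelihood model with series and day (28 libraries, 346 miRNAs tested). miR-26a-5p was lower in PMD-Sen by a log2 difference of -0.38 (SE 0.07, 0.77-fold, edgeR adjusted p = 0.000612 by Benjamini-Hochberg). miR-26b-5p was lower by -0.42 (SE 0.09, 0.75-fold, edgeR adjusted p = 0.000721). miR-101-3p differed by -0.03 (SE 0.20, edgeR adjusted p = 0.929), with a 95% interval from -0.43 to 0.37. Ordered from the lowest log2 difference, miR-26b-5p was the 28th and miR-26a-5p the 35th of 346 miRNAs. In all, 2 of 3 members passed, against 23.4% of all tested miRNAs in either direction and 10.7% with the lower level in PMD-Sen. The median log2 difference of all tested miRNAs was 0.07, and scaling by total counts raised that median by 0.11 without changing the direction of either miR-26 difference. With the replicate 2 libraries left out, leaving 1 library a condition, the adjusted p-values were 0.0572 for miR-26a-5p and 0.0579 for miR-26b-5p. With the replicate 1 libraries left out they were 0.0245 and 0.0118. Markers of other cell types overlapped between the series over D1 to D16, with summed epithelial markers at 14.6 to 163 CPM in PMD-Sen and 27.3 to 87.0 CPM in DDR-Sen, blood markers at 0 to 12.6 and 0 to 9.24 CPM, and endothelial markers at 48.1 to 141 and 70.5 to 155 CPM. Their part in the result was not tested.

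**Figure D2:**
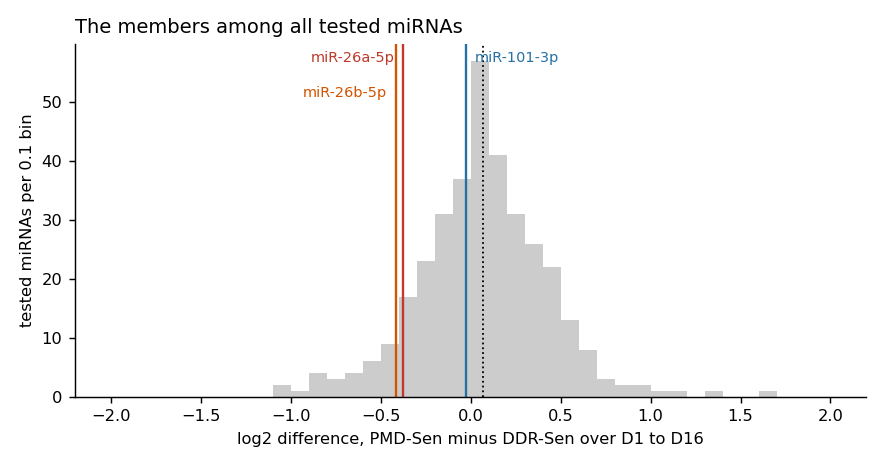
Number of tested miRNAs (vertical axis, per bin of 0.1) by their log2 difference between PMD-Sen and DDR-Sen over D1 to D16 (horizontal axis), for 346 miRNAs, with coloured lines at the members and a dotted line at the median of all. miR-26a-5p at -0.38 and miR-26b-5p at -0.42 lie on the left shoulder of the distribution and miR-101-3p at -0.03 near its middle.

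The separation was widest from D1 to D6. For miR-26a-5p, the log2 difference between PMD-Sen and DDR-Sen was -0.18 at D0, -0.58 at D1, -0.67 at D2, -0.56 at D3, -0.56 at D4, -0.45 at D6, -0.24 at D8 and 0.05 at D16. Both PMD-Sen libraries lay under both DDR-Sen libraries on 6 of 8 days, D0 and D16 being the exceptions. For miR-26b-5p, the log2 differences were -0.05, -0.43, -0.68, -0.67, -0.68, -0.55, -0.28 and -0.04 on the same days. Its PMD-Sen libraries lay under the DDR-Sen libraries on 5 of 8 days. Over all tested miRNAs and days, 24.8% of comparisons had both PMD-Sen libraries lower.

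Single days carried little statistical weight. By the thresholds used for differential expression in the study, an unadjusted p under 0.05 and an absolute log2 fold change over 1, no difference of miR-26a-5p or miR-26b-5p on a single day passed, and the 1 member that did was miR-101-3p at D1. Over all tested miRNAs and the 8 days together, 6.22% of comparisons passed these thresholds. By adjusted p alone, miR-26a-5p at D2 passed (SE 0.19, edgeR adjusted p = 0.0336), where 1.6% of all comparisons did. This call was lost with total counts (adjusted p = 0.121), a mean of at least 10 counts (0.0641) or thinned counts (0.0718), without replicate 2 of PMD-Sen D2 (0.382) and without replicate 1 of DDR-Sen D2 (0.275), and the adjusted p over the 7 alternatives that left out no library ran from 0.0166 to 0.121. The next was miR-26a-5p at D1 (edgeR adjusted p = 0.0732).

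**Figure D3:**
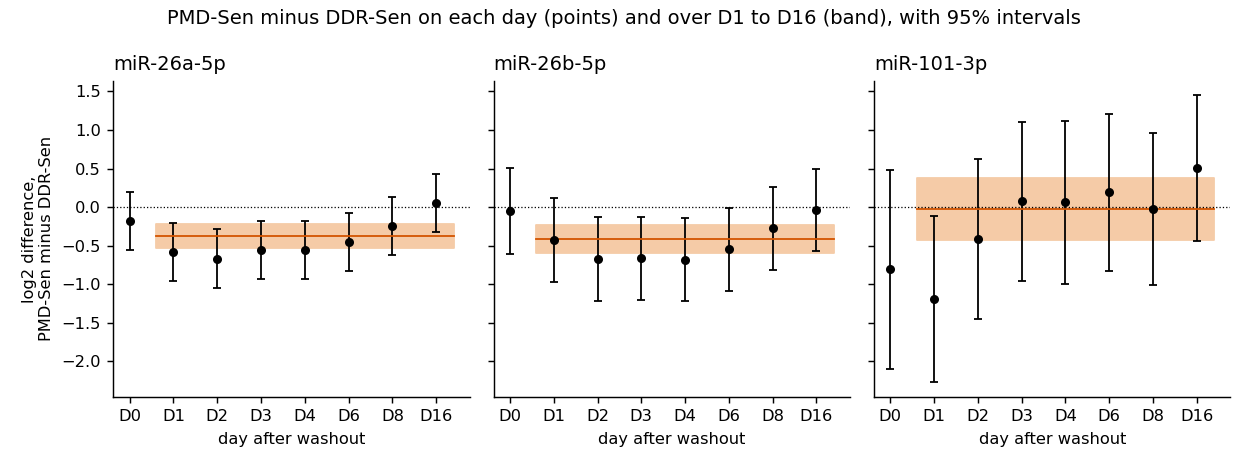
Log2 difference between PMD-Sen and DDR-Sen (vertical axis) on each day after washout (horizontal axis), with points for the fitted difference, bars for its 95% confidence interval, and a band for the difference over D1 to D16 with its interval. The points of miR-26a-5p and miR-26b-5p are below 0 from D1 to D8 and close to 0 at D16, and those of miR-101-3p run from -1.19 at D1 to 0.51 at D16 with wide bars.

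The comparison of each condition with Ctrl asked how each senescent state differed from proliferating cells. By the study's thresholds, 1 member in 1 of 17 conditions passed, miR-101-3p in PMD-Sen D16. The share was 9.9% over all miRNAs and conditions and 16.9% in PMD-Sen D16 alone. miR-26a-5p did not reach a log2 fold change of 1 in any condition. By adjusted p alone it was higher than Ctrl in 2 of 17 conditions, PMD-Sen D16 (log2 fold change 0.59, SE 0.19, 1.51-fold, edgeR adjusted p = 0.0275) and DDR-Sen D16 (0.54, SE 0.19, edgeR adjusted p = 0.0339). That rule was met in the higher direction by 3.66% of all tests. In RS, miR-26a-5p was at 23292 and 31379 CPM, above both Ctrl libraries, with a log2 fold change of 0.49 (SE 0.19, edgeR adjusted p = 0.0547), which was 0.12 without replicate 2 of RS (edgeR adjusted p = 0.776) and 0.69 without replicate 1 (edgeR adjusted p = 0.0183). When a single library was left out, the adjusted p of miR-26a-5p ranged from 0.0369 to 0.297 in PMD-Sen D16 and from 0.0885 to 0.190 in DDR-Sen D16 in edgeR. The adjusted p stayed under 0.05 only without replicate 2 of PMD-Sen D16, and leaving out any of the other libraries of these comparisons, Ctrl included, ended the call. Each call was also lost in 3 of 8 alternatives that left out no replicate of the comparison, with adjusted p-values from 0.0225 to 0.0899 in PMD-Sen D16 and from 0.000908 to 0.0562 in DDR-Sen D16.

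Across the 17 conditions, both libraries of miR-26a-5p were above both Ctrl libraries in 10 and below them in 1. For miR-26b-5p these numbers were 8 and 1, and for miR-101-3p 5 and 4. Over all tested miRNAs, 26.5% of comparisons had both libraries above Ctrl and 26.7% below. The log2 fold changes of miR-26b-5p against Ctrl were close to those of miR-26a-5p at the end states, at 0.42 in PMD-Sen D16, 0.46 in DDR-Sen D16 and 0.46 in RS, but their errors were larger (SE 0.26, 0.27 and 0.26) and none passed (edgeR adjusted p = 0.254, 0.220 and 0.223). In RS its libraries were unlike each other, at 1875 and 3258 CPM, and the first lay within the Ctrl range.

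**Figure D4:**
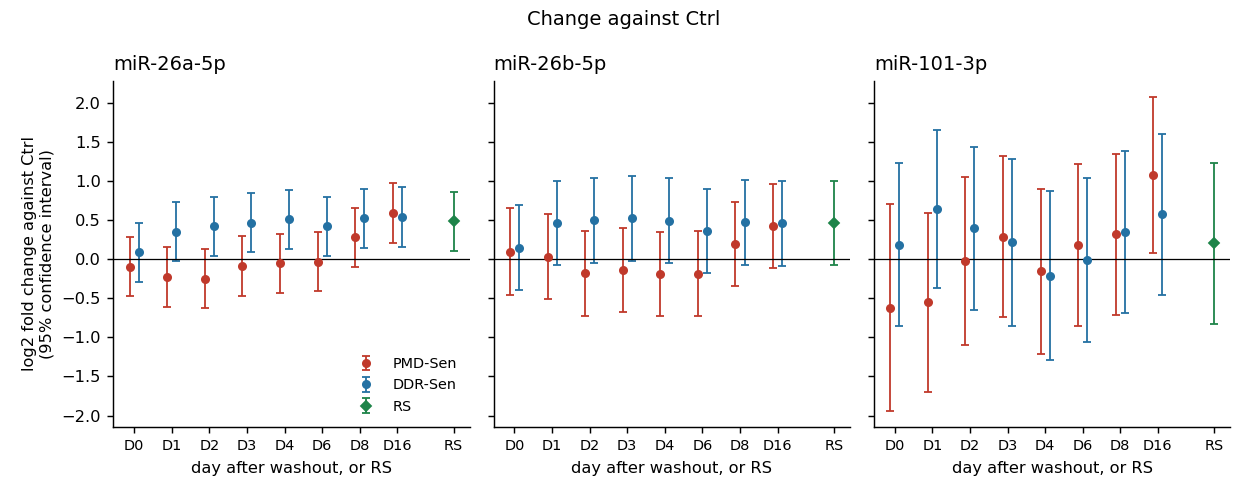
Log2 fold change against Ctrl (vertical axis) by day after washout and in RS (horizontal axis) for PMD-Sen (red), DDR-Sen (blue) and RS (green), with points for the fitted value and bars for the 95% confidence interval. The DDR-Sen points of miR-26a-5p are above 0 from D1 on and its PMD-Sen points rise above 0 at D8, whereas the bars of miR-101-3p cross 0 in 16 of 17 conditions.

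miR-101-3p was the least abundant member that could be tested, with 8 to 787 counts in a library (median 50.5), so that counting error alone was large in the smallest libraries. It was at 133 and 132 CPM in Ctrl, from 31 and 46 counts. Its lowest mean levels were in PMD-Sen D0, at 73.5 and 100 CPM from 8 and 9 counts, and in PMD-Sen D1, at 121 and 50.3 CPM from 33 and 8 counts. All 4 of these libraries lay below both Ctrl libraries, but the fits gave log2 fold changes of only -0.62 (SE 0.65, edgeR adjusted p = 0.738) and -0.55 (SE 0.56, edgeR adjusted p = 0.691).

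Its highest mean level was in PMD-Sen D16, where the 2 libraries did not agree. Replicate 1, the deepest library of all, had 428 CPM from 787 counts. Replicate 2 had 117 CPM from 53 counts, under both Ctrl libraries. This 3.67-fold gap was the widest between replicates of miR-101-3p in the 18 conditions, where the median was 1.44-fold. The log2 fold change against Ctrl was 1.08 (SE 0.49, unadjusted p = 0.0354 in edgeR, adjusted p = 0.117), and without replicate 1 it was -0.18 (edgeR adjusted p = 0.851). In DDR-Sen D16 miR-101-3p was at 150 and 242 CPM (log2 fold change 0.57, edgeR adjusted p = 0.440), and in RS at 88.3 and 212 CPM (0.21, edgeR adjusted p = 0.786), on both sides of Ctrl.

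At D1 miR-101-3p met the study's thresholds between the series. PMD-Sen had 121 and 50.3 CPM and DDR-Sen 283 and 124 CPM, and the libraries did not overlap, though the nearest pair was close. The log2 difference was -1.19 (SE 0.53, unadjusted p = 0.0319 in edgeR, adjusted p = 0.192). Without replicate 2 of PMD-Sen it was -0.77 and without replicate 1 of DDR-Sen -0.55, neither of which passed.

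The time course of each series was tested as a slope per unit of log2(day + 1), on 16 libraries. In PMD-Sen, miR-26a-5p rose with a slope of 0.20 (SE 0.05, edgeR adjusted p = 0.00183) and miR-101-3p with a slope of 0.42 (SE 0.11, edgeR adjusted p = 0.00346). miR-26b-5p had a slope of 0.09 (SE 0.06, edgeR adjusted p = 0.233). In DDR-Sen, miR-26a-5p rose with a slope of 0.09 (SE 0.03, edgeR adjusted p = 0.0432), while miR-26b-5p had a slope of 0.04 (edgeR adjusted p = 0.425) and miR-101-3p a slope of -0.00 (edgeR adjusted p = 0.992). The share of all tested miRNAs with a slope in either direction was 35.1% for PMD-Sen and 32.6% for DDR-Sen, so a slope in 2 of 3 and 1 of 3 members was read against a high background.

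The PMD-Sen calls were lost without the last day or without the replicate 1 libraries. Without D16 the slopes were 0.13 for miR-26a-5p (edgeR adjusted p = 0.0941) and 0.34 for miR-101-3p (edgeR adjusted p = 0.0690). Without replicate 1 of PMD-Sen D16 alone, a setting chosen after seeing the data, miR-26a-5p kept a slope of 0.15 (edgeR adjusted p = 0.0202) and miR-101-3p had 0.23 (edgeR adjusted p = 0.134). Without all replicate 1 libraries they were 0.12 (edgeR adjusted p = 0.417) and 0.12 (edgeR adjusted p = 0.703). In the smaller DDR-Sen slope of miR-26a-5p, D0 was the low point, and without D0 it was 0.04 (edgeR adjusted p = 0.350).

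Whether the slopes differed between the series was tested in 1 model of 32 libraries, added after seeing the data. miR-101-3p had the steeper slope in PMD-Sen by 0.40 (SE 0.14, edgeR adjusted p = 0.0456), where 14.4% of 354 tested miRNAs differed. This difference was 0.22 without replicate 1 of PMD-Sen D16 (edgeR adjusted p = 0.359) and -0.13 without all replicate 1 libraries (edgeR adjusted p = 0.820). For miR-26a-5p the difference was 0.07 (SE 0.06, edgeR adjusted p = 0.412), and for miR-26b-5p 0.02 (edgeR adjusted p = 0.903). With D0 left out, so that the slope ran only from D1 to D16, miR-26a-5p climbed more steeply in PMD-Sen by 0.23 (edgeR adjusted p = 0.0136). Of 5 alternatives that left out no replicate, its slope difference passed only in this 1. The share of all miRNAs passing in that setting was not counted. With D0 kept, the difference was -0.03 without all replicate 1 libraries and 0.19 without all replicate 2 libraries.

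The 3 end states were also set against each other. None of the members differed between PMD-Sen D16, DDR-Sen D16 and RS by the study's thresholds, where 8.43% of all tests passed, and none had an adjusted p under 0.05. For miR-26a-5p the 95% intervals of the log2 differences ran from -0.27 to 0.48 for PMD-Sen D16 against RS, from -0.33 to 0.43 for DDR-Sen D16 against RS and from -0.32 to 0.43 for PMD-Sen D16 against DDR-Sen D16. For miR-26b-5p they ran from -0.57 to 0.50, from -0.54 to 0.53 and from -0.57 to 0.50. The intervals of miR-101-3p were wider, from -0.08 to 1.82 for PMD-Sen D16 against RS and from -0.44 to 1.45 for PMD-Sen D16 against DDR-Sen D16. Without replicate 2 of RS the log2 difference of miR-101-3p between PMD-Sen D16 and RS was 1.74 (edgeR adjusted p = 0.0356), and without replicate 1 of PMD-Sen D16 it was -0.39.

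The 18 conditions were also ordered by mean CPM. For miR-26a-5p the order ran from PMD-Sen D16 (29388 CPM), DDR-Sen D16 (28333 CPM) and DDR-Sen D8 (28023 CPM) at the top to PMD-Sen D0 (18253 CPM), PMD-Sen D1 (16636 CPM) and PMD-Sen D2 (16408 CPM) at the bottom, with Ctrl in 12th place (19487 CPM). Neighbours in this order overlapped in 16 of 17 pairs, which sorting pairs of libraries by their mean makes likely. For miR-26b-5p it ran from DDR-Sen D3 (2689 CPM) to PMD-Sen D4 (1636 CPM), with Ctrl in 14th place and 16 of 17 neighbouring pairs overlapping. For miR-101-3p it ran from PMD-Sen D16 (272 CPM) to PMD-Sen D1 (85.6 CPM), with Ctrl in 13th place and 15 of 17 pairs overlapping.

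The 2 members of the miR-26 seed family moved in near proportion. miR-26a-5p had 7.86 to 12.7 counts for each count of miR-26b-5p over the 36 libraries (median 10.7). The lowest ratios were those of replicate 2 of PMD-Sen D0 (7.86) and replicate 1 of PMD-Sen D1 (7.92), while their partner libraries stood at 11.3 and 10.3. Between PMD-Sen and DDR-Sen over D1 to D16 the log2 ratio differed by 0.05 (28 libraries, two-sided exact permutation of the series within days, p = 0.176, 279936 arrangements). Among the replicate 2 libraries alone it differed by 0.12 and among the replicate 1 libraries alone by -0.00673 (14 libraries each). Their seed being shared, miR-26b-5p made up 7.32% to 11.3% of the reads of the pair.

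**Figure D5:**
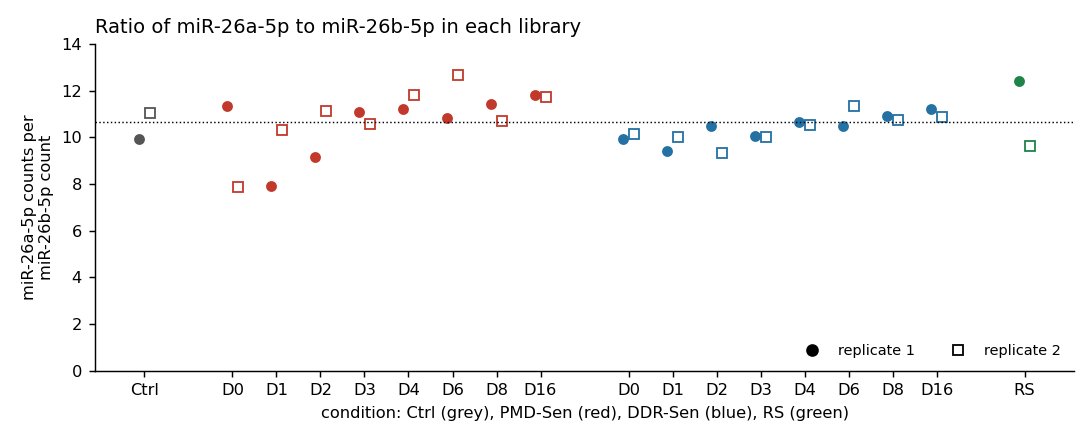
Counts of miR-26a-5p per count of miR-26b-5p (vertical axis) in each of 36 libraries by condition (horizontal axis), with filled circles for replicate 1, open squares for replicate 2 and a dotted line at the median of 10.7. The ratios lie between 7.86 and 12.7, and the PMD-Sen and DDR-Sen points cover overlapping ranges.

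miR-26b-3p, the arm opposite miR-26b-5p and the usual passenger strand of the hairpin, was barely detected. It had 58 counts in all libraries together, 0 to 6 in each, and 12 of 36 libraries were at 0. Of the libraries, 32 were at or under 3 counts, the level taken as the detection floor, and no fold change is given for it. Ctrl had 2 and 3 counts and RS 0 and 0. Its share of the reads of the hairpin's 2 arms was 0.161% (95% Wilson interval 0.124% to 0.207%). The share was 0.182% in PMD-Sen (0.126% to 0.262%), 0.149% in DDR-Sen (0.101% to 0.219%) and 0.466% in Ctrl (0.199% to 1.09%, from 5 counts), and in RS the upper bound was 0.137%. These intervals cover counting error only. The log2 ratio of the 5p arm to the 3p arm, with a pseudocount of 0.5, differed between PMD-Sen and DDR-Sen by -0.40 (28 libraries, two-sided exact permutation p = 0.415). The opposite arms of the other hairpins had fewer counts still, with 14 counts of miR-26a-1-3p, 29 of miR-26a-2-3p and 1 of miR-101-5p over all libraries.

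Between replicates, the levels of miR-26a-5p differed by a median of 1.14-fold over the 18 conditions (at most 1.41-fold), those of miR-26b-5p by 1.16-fold (at most 1.84-fold) and those of miR-101-3p by 1.44-fold (at most 3.67-fold). For each of the 3, the library with more counts had the higher CPM in 12 of 18 conditions. Replicate 1 was the higher in 15 conditions for miR-26a-5p and in 13 for each of miR-26b-5p and miR-101-3p, and it was the larger library in 13. The part of library size in these levels was not tested beyond the fits on thinned counts.

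The miRNAs with the most similar profile to each member were named by Pearson's r of log2 CPM over the 18 condition means. For miR-26a-5p they were miR-98-5p (r = 0.927), the joined entry of miR-151a-5p and miR-151b (r = 0.919) and miR-30a-5p (r = 0.903). For miR-26b-5p they were let-7f-5p (r = 0.935), miR-146b-5p (r = 0.898) and miR-98-5p (r = 0.881), and for miR-101-3p miR-30e-5p (r = 0.870), miR-542-3p (r = 0.825) and miR-218-5p (r = 0.817). miR-26a-5p and miR-26b-5p correlated at r = 0.933, miR-26a-5p and miR-101-3p at 0.635, and miR-26b-5p and miR-101-3p at 0.479. These values are descriptions over 18 means that share libraries and scaling, without a test.

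Other miRNAs known to repress EZH2 were examined as the context of the pathway. Of 11 such names, 7 could be tested, the let-7 members let-7a-5p, let-7b-5p, let-7c-5p and miR-98-5p, and miR-214-3p, miR-25-3p and miR-30d-5p. Over D1 to D16, 3 of the 7 passed by adjusted p with the lower level in PMD-Sen and 0 with the higher, where 10.7% of all tested miRNAs passed in the lower direction. They were let-7a-5p (log2 difference -0.38, edgeR adjusted p = 9.45e-05), let-7b-5p (-0.46, edgeR adjusted p = 0.00435) and miR-98-5p (-0.24, just under the limit with an edgeR adjusted p of 0.05 when rounded). All 3 were let-7 members, and let-7c-5p was at -0.12 without passing. Outside let-7, miR-25-3p was at -0.0046, miR-30d-5p at 0.09 and miR-214-3p at 0.07, and none of them passed. The median of the 7 was -0.12, beside 0.07 over all tested miRNAs. With day, 3 of 7 fell in PMD-Sen, where 17% of all tested miRNAs fell. The first was miR-214-3p, which has been shown in muscle to silence EZH2 (slope -0.38, edgeR adjusted p = 7.76e-05). The others were let-7b-5p (-0.20, edgeR adjusted p = 0.00292) and let-7c-5p (-0.21, edgeR adjusted p = 0.00496). In DDR-Sen 2 of 7 fell, miR-25-3p (-0.19, edgeR adjusted p = 0.00128) and miR-214-3p (-0.16, edgeR adjusted p = 0.0295), where 17.9% of all tested miRNAs fell. By adjusted p, 0 of 7 rose in either series. Against Ctrl, 0 of 7 passed the study's thresholds in PMD-Sen D16 and 1 of 7 in both DDR-Sen D16 and RS, miR-25-3p of the miR-106b cluster, which was lower by -1.08 (edgeR adjusted p = 0.00255) and -1.75 (edgeR adjusted p = 8.46e-06). The shares over all tested miRNAs were 16.9%, 21.4% and 22.2% in these 3 conditions. None of the 7 was higher than Ctrl by these thresholds in any of them.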

How the data were processed

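Small RNA of WI-38 cells was sequenced in 36 libraries (NEXTFLEX kit, MiSeq). According to the study's methods, trimming, mapping (GRCh38), alignment (miRBase) and counting by the authors were done in the exceRpt pipeline. The table they deposited gives raw expected counts for each mature miRNA. Reads shared by several miRNAs are divided among them, which left fractions in 4 values of miR-26a-5p and 2 of miR-26b-5p. All values were rounded before testing. Every column could be matched to a sample through its description.

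Tests used edgeR 4.0.16 (R 4.3.3) with TMM scaling, filterByExpr, quasi-likelihood tests and p-values adjusted (Benjamini-Hochberg) over every miRNA tested. The tests against Ctrl, by day and between end states used 1 model of 36 libraries and 18 conditions (360 miRNAs, at least 99.8% of the counts of every library, biological coefficient of variation 20.9%, 18 residual degrees of freedom). The series difference used series and day over D1 to D16 (346 miRNAs), and the slopes used log2(day + 1) in PMD-Sen (336 miRNAs) and DDR-Sen (319). The study's thresholds, an unadjusted p under 0.05 and an absolute log2 fold change over 1, were kept. The study used DESeq2, which served as an alternative here (version 1.42.0). Further alternatives were total counts, DESeq2 size factors, no filter, a mean of at least 10 counts, counts thinned to 81670 per library, a replicate block, left-out libraries or days, and day untransformed. Ratios were compared by exact permutation of the series within days.

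The steps were tested on simulated data of 360 miRNAs with 200 changed. At a log2 fold change of 2 in PMD-Sen D16 against Ctrl, 96.9% of the changed miRNAs that were tested were called. At a log2 difference of 1 between the series 100% were, and at a slope of 0.5 in PMD-Sen 99.4% were. Of the unchanged miRNAs tested, 3 of 145, 7 of 144 and 7 of 140 were called, in the same order. The rate of calls at smaller values, such as the series differences of the miR-26 pair, was not tested. Besides the members, results were given by name for the 3 miRNAs of highest Pearson's r for each member. They were also given for every miRNA of the list of EZH2 repressors that could be tested. The opposite arms of the hairpins and the liver marker were named with their counts or levels. Although the rule for the members uses names alone, the members, the lists and the tests were chosen with earlier results of these data known. Mature sequences were taken from RefSeq and UTRs from GENCODE v44. miR-144-3p, miR-1297 and miR-4465 were not analysed here.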

Additional observations from a re-analysis of the deposited data

Results flagged for a closer look

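The miR-26 pair differed between the inducers of senescence over D1 to D16 by a test of the difference itself. The log2 difference between PMD-Sen and DDR-Sen was -0.38 for miR-26a-5p (edgeR adjusted p = 0.000612) and -0.42 for miR-26b-5p (edgeR adjusted p = 0.000721). Both PMD-Sen libraries of miR-26a-5p were the lower on 6 of 8 days, where 24.8% of all day-matched comparisons had both lower. Without the replicate 2 libraries the adjusted p-values in edgeR were 0.0572 and 0.0579.

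miR-101-3p differed between the series at D1 by a log2 difference of -1.19 (unadjusted p = 0.0319 in edgeR, adjusted p = 0.192), from 33 and 8 counts in PMD-Sen and 265 and 59 in DDR-Sen. Its slope with day was steeper in PMD-Sen than in DDR-Sen by 0.40 (edgeR adjusted p = 0.0456), a value that was 0.22 without replicate 1 of PMD-Sen D16.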

How the results depend on the processing

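The miR-26a-5p and miR-26b-5p differences between the series kept their direction and an adjusted p under 0.05 in all 9 alternatives that left out no replicate (log2 -0.54 to -0.26 and -0.58 to -0.31). Deviations of same-numbered libraries correlated over 0.1 in 53 of 153 pairs of conditions (-0.458 to 0.366, median 0.0415). On average, 13 of 18 conditions correlated above 0 with the others. These low values do not settle whether the replicate numbers pair the samples. With a replicate block in the model, the series differences were -0.38 for miR-26a-5p and -0.43 for miR-26b-5p.

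For miR-101-3p in PMD-Sen D16 against Ctrl the call was lost at 0.96 with DESeq2, 0.97 with DESeq2 size factors, 0.95 with total counts, 1.01 with a mean of 10 counts, 0.99 with the replicate block, 1.03 with thinned counts, 0.95 with the 4 libraries alone and 1.08 by adjusted p. The count of calls against Ctrl was then 0, and 2 without a filter, the added one being miR-26b-3p in RS, at 0 counts. Calls by day were 0 with thinned counts or by adjusted p. Adjusted p here replaced the unadjusted p, and the study's fold threshold was kept. Without D16, slopes in both series numbered 0, those of PMD-Sen being 0.13 for miR-26a-5p and 0.34 for miR-101-3p. The DDR-Sen slope of miR-26a-5p lost its call at 0.094 without a filter, 0.073 with a mean of 10 counts, 0.080 with thinned counts, 0.016 per day itself, 0.076 without D16 and 0.044 without D0. Reversed values near 0 were, for miR-101-3p, a series difference of 0.071 with total counts and DDR-Sen slopes of 0.00889 (DESeq2), 0.00610 (size factors), 0.020 (total counts), 0.010 (no filter), 0.014 (replicate block), 0.012 (thinned) and 0.00952 (day itself). For miR-26b-5p they were a DDR-Sen slope of -0.025 without D0, a slope difference of -0.047 without D16, and 0.026, 0.025, 0.043 and 0.018 for DDR-Sen D16 against RS (DESeq2, size factors, total counts, 4 libraries). For miR-26a-5p in PMD-Sen D16 against DDR-Sen D16 they were -0.024, -0.024 and -0.00769 (DESeq2, size factors, thinned). The slope difference of miR-26a-5p was 0.23 without D0, and that of miR-101-3p lost its call at 0.37 (total counts), 0.35 (replicate block), 0.44 (without D16) and 0.46 (without D0). The cause was not tested. The adjusted p of miR-26a-5p exceeded 0.05 in PMD-Sen D16 with size factors (0.0566), thinned counts (0.0899) and the 4 libraries alone (0.0502), and in DDR-Sen D16 without a filter (0.0502), with a mean of 10 counts (0.0562) and thinned counts (0.0530), while in RS it was 0.0401 with the replicate block.

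With 1 library left out, log2 values ran from -0.18 to 1.69 for miR-101-3p in PMD-Sen D16 against Ctrl, from -0.13 to 0.80 and -0.72 to 0.68 for miR-26b-5p and miR-101-3p in RS, from 0.12 to 0.69 for miR-26a-5p in RS, and from -2.03 to -0.55 for miR-101-3p at D1. Without a replicate number the series differences ran from -0.50 to -0.33, -0.61 to -0.32 and -0.51 to 0.21 for miR-26a-5p, miR-26b-5p and miR-101-3p, the PMD-Sen slopes from 0.12 to 0.24, -0.00797 to 0.16 and 0.12 to 0.58, the DDR-Sen slopes of miR-26a-5p and miR-101-3p from 0.057 to 0.14 and -0.21 to 0.23, the slope differences from -0.028 to 0.19, -0.11 to 0.16 and -0.13 to 0.80, and the log2 ratio difference from -0.00673 to 0.12. Between end states in the order PMD-Sen D16 against RS, DDR-Sen D16 against RS and PMD-Sen D16 against DDR-Sen D16, miR-26a-5p ran from -0.10 to 0.44, -0.15 to 0.42 and -0.15 to 0.23, miR-26b-5p from -0.38 to 0.52, -0.35 to 0.59 and -0.24 to 0.14, and miR-101-3p from -0.39 to 1.74, -0.11 to 1.29 and -0.76 to 1.12. Counts of calls ran from 0 to 1 against Ctrl, and from 0 to 2 between end states, by day, between series and for slopes. Depth limits miR-101-3p, with as few as 8 counts in a library, and miR-26b-3p, with at most 6.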
